A study of Mus musculus with 8 samples.

Results

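The genes described here encode the actin and myosin machinery that is known for its part in enucleation, the step by which a mammalian erythroblast expels its nucleus. They are the small GTPases Rac1, Rac2 and Cdc42, the formins Diaph1 and Diaph3, the nonmuscle myosin II heavy chains Myh9 and Myh10, the filament proteins Vim and Tpm1, and the pleckstrin family member Plek2. These 10 genes were chosen for their known roles, with earlier results of these data known, out of 18193 genes that the array annotation names. All 28 probe sets whose only annotated symbol is one of them were taken, and no probe set with several symbols named any of them.

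The study compared fetal livers of Eklf-/- (KO) mouse embryos with those of wild-type (WT) embryos, to find genes whose expression depends on EKLF, the erythroid zinc finger transcription factor encoded by Klf1. It also measured EKLF binding at promoters in E14.5 fetal liver cells by ChIP-chip, and joined both to list putative direct targets. Those binding data were not used here. The KO group held 4 embryos (labelled replicates 2 to 5) and the WT group 4 embryos (replicates 1 to 4), all at E14.5, and RNA of each whole fetal liver went onto an Affymetrix array of its own. Per the methods, the KO embryos came from B6 lines made with a BAC construct carrying an engineered Eklf locus and with E2A-Cre mice, a strain whose Cre acts in the early embryo, so the knockout was of the whole embryo and not of red cells alone. A fetal liver of this stage holds erythroblasts of all stages beside hepatoblasts, endothelium, stellate cells, macrophages, granulocytes and megakaryocytes, and in such bulk RNA fewer cells of a type and less RNA per cell cannot be told apart.

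As background, an erythroblast leaving the cell cycle places its nucleus to a side, and a contractile ring of actin and nonmuscle myosin II forms between nucleus and cytoplasm in a way that resembles cytokinesis. In mouse fetal erythroblasts Rac GTPases act with the formin mDia2, the product of Diaph3, to assemble that ring, and Plek2 helps to organise actin during terminal maturation. Vimentin, the intermediate filament protein that anchors the nucleus in many cells, is lost as mammalian erythroblasts mature.

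Signals are MAS5.0 intensities that the authors scaled to a common trimmed mean per array, given below as log2, so a difference of 1 is a doubling. Probe sets with a KO or WT mean above a signal of 100 were tested with limma across all 23379 such probe sets, and a Benjamini-Hochberg adjusted p under 0.05 counted as a call. Klf1 itself was 9.81-fold lower in the KO livers, at 10.65 ± 0.11 against 13.95 ± 0.076 in WT (SD, n = 4 each), and all 4 KO arrays lay below all WT arrays. The sources used here do not place its probe set relative to the deletion. Over all tested probe sets the median KO minus WT difference was 0.17, and the median correlation was 0.962 between KO arrays, 0.976 between WT arrays and 0.879 between a KO and a WT array. As signs of RNA quality, the 3-prime minus 5-prime difference of Actb was 0.55 ± 0.062 in KO and 0.85 ± 0.080 in WT, that of Tfrc 2.21 ± 0.35 in KO and 1.79 ± 0.092 in WT, and that of Gapdh -0.20 ± 0.034 in KO and -0.16 ± 0.055 in WT (SD, n = 4 each). The groups overlapped for Gapdh only. The titles give all KO arrays a code that no WT array has, and what the code stands for and genotype cannot be told apart. The labels do not say whether embryos shared a litter, and p-values measure only the spread between these embryos.

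Across the 10 genes the KO livers held more signal for Vim, Tpm1, Rac1 and Rac2 and less for Plek2 and Diaph3 on the brightest probe set of each gene, while Cdc42, Diaph1, Myh9 and Myh10 were not called there. Plek2 had the largest fall, at 2.53-fold, and it was measured by a single probe set. Of the 25 member probe sets that were tested, 16 were called, 13 higher and 3 lower in KO. That is 52% higher and 12% lower, against 34.4% higher and 17.7% lower among all 23379 tested probe sets, of which 52.2% were called. Scaling the arrays to a common 75th percentile gave 8 higher and 5 lower, and scaling to the hybridisation controls gave 22 higher and 2 lower, so the split between directions depends on the scaling.

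Counted by gene, 4 of the 10 were higher in KO and 2 lower on the brightest probe set, beside 25.5% higher and 21% lower among all 11275 genes tested in that way. The median difference was 0.18 over the 10 genes and 0.060 over all genes. With the 75th percentile scaling 1 gene was higher and 4 were lower. After quantile normalization 6 were higher and 2 lower, with Myh9 (0.41) and Myh10 (0.32) called too (adjusted p = 0.022 and 0.020 from limma). The mean over the probe sets of a gene also gave 6 higher and 2 lower. There Diaph1 (0.79) and Myh9 (0.34) were called (adjusted p = 0.0017 and 0.033 from limma). The KO and WT arrays did not overlap in 16 of the 25 member probe sets (14 with KO above, 2 with KO below), against 49.8% of all tested probe sets. The remaining 3 probe sets, 1 each of Rac1, Myh10 and Tpm1, had both group means below 100 and were not tested.

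**Figure D1:**
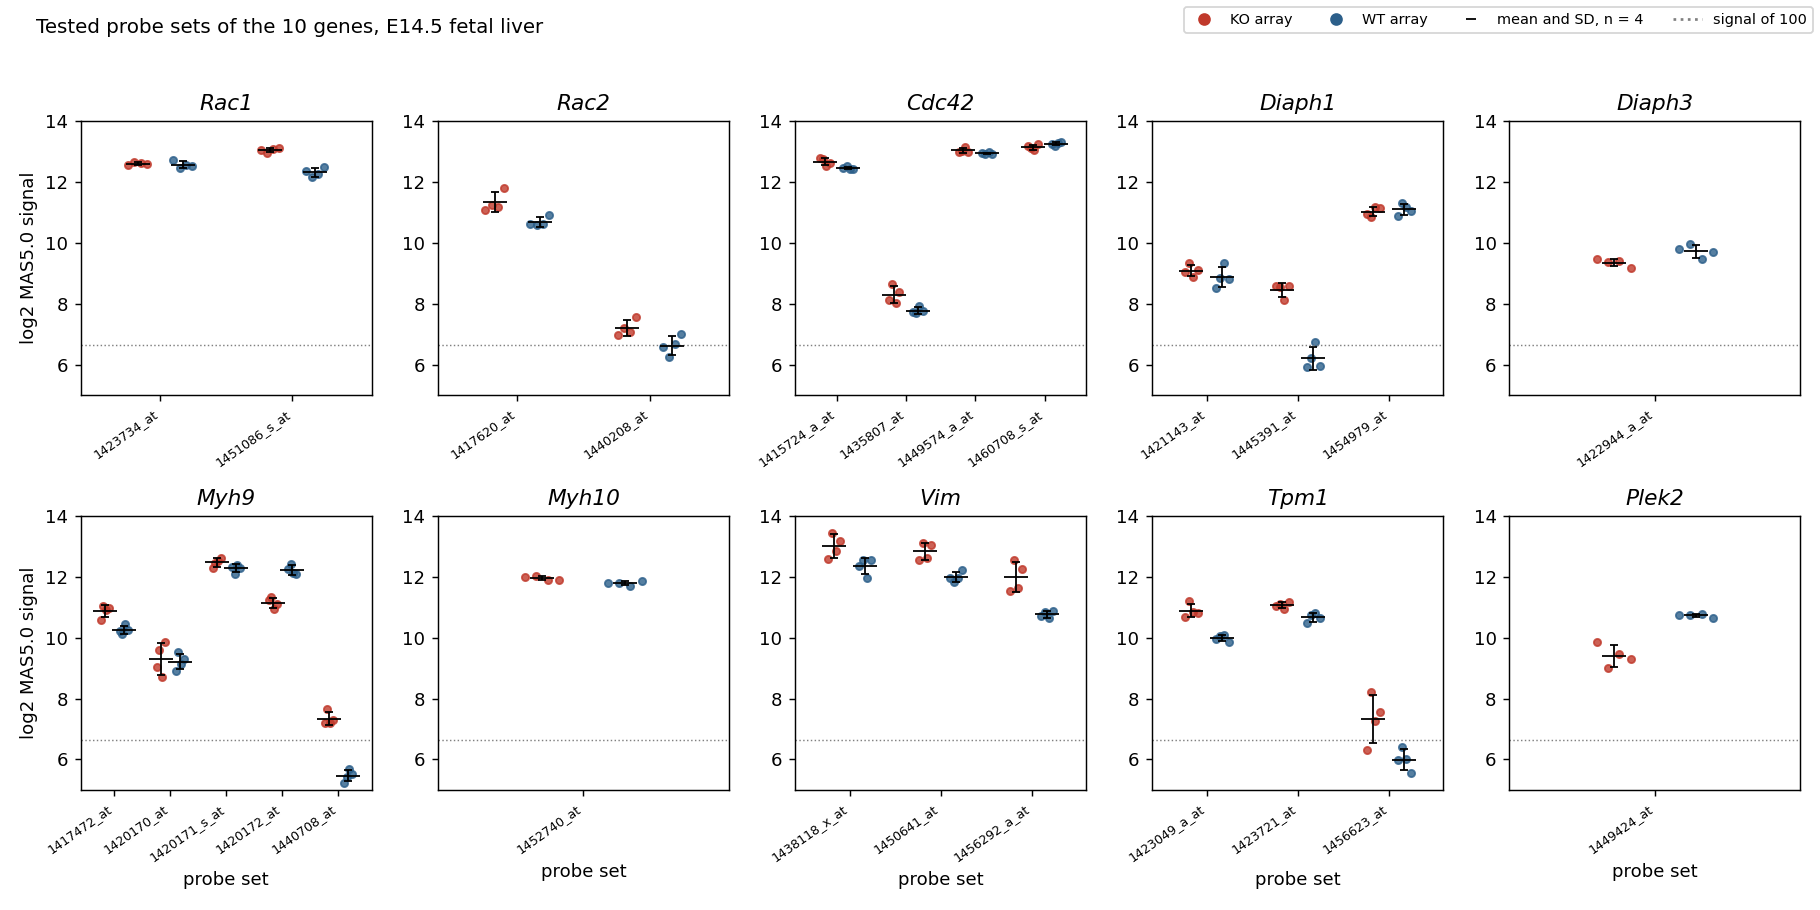
Log2 MAS5.0 signal (y axis) of the 25 tested probe sets (x axis) of the 10 genes, with a point for each KO array (red) and WT array (blue), and the mean with its SD (n = 4) in black. The dotted line marks a signal of 100. KO points lie apart from and below WT points for Plek2 and for Myh9 1420172_at, and above them in all 3 Vim probe sets.

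The small GTPases switch between a GDP-bound and a GTP-bound state and, when bound to GTP, turn on actin assembly. Rac1 is expressed in most cells, Rac2 in blood cells, and Cdc42 is best known for filopodia and cell polarity.

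Rac1 differed between its probe sets. On the brightest, 1451086_s_at, the log2 signal was 13.05, 12.97, 13.08 and 13.13 in KO replicates 2, 3, 4 and 5, against 12.37, 12.17, 12.27 and 12.50 in WT replicates 1, 2, 3 and 4. The KO arrays lay within a narrow band and all of them were above every WT array. The difference was 0.73 (SE 0.10, adjusted p = 5.7e-04 from limma), a 1.66-fold rise, and the call was kept under every alternative run, with differences of 0.38 to 1.48. On 1423734_at the signal was 12.57 to 12.67 in KO and 12.47 to 12.72 in WT, a difference of 0.035 with a 95% interval of -0.18 to 0.25 (adjusted p = 0.78 from limma). Within an array, 1423734_at minus 1451086_s_at averaged -0.45 in KO and 0.25 in WT, with no overlap between the groups (two-sided exact permutation test, p = 0.029, the lowest value possible with 4 arrays a group). The suffix _s_at marks a probe set whose probes match transcripts of more than 1 gene or a shared stretch, so its reading may not be of Rac1 alone.

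Rac2 was higher in KO on both of its probe sets. The brightest, 1417620_at, read 11.08, 11.25, 11.19 and 11.82 in KO replicates 2 to 5, and 10.63, 10.57, 10.62 and 10.91 in the WT arrays in order. Every KO array was above every WT array, and KO replicate 5 stood out as the highest. The difference was 0.65 (SE 0.17, adjusted p = 0.012 from limma), a 1.57-fold rise. The dim probe set 1440208_at read 6.96 to 7.57 in KO and 6.25 to 6.99 in WT, with WT replicate 4 slightly above KO replicate 2. Its difference was 0.58 (adjusted p = 0.029 from limma), and against a signal of 100 the fold was at least 1.47. Within arrays the 2 probe sets of Rac2 did not differ in their change beyond the spread (-0.073, exact permutation test, p = 0.49). This changed with the processing. The pair passed after quantile normalization (-0.54, exact permutation test, adjusted p = 0.048) and with a pseudocount of 64 (-0.26, adjusted p = 0.039).

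Rac2 is a gene of blood cells, and the granulocyte markers had their highest summed signal in the same array. Their summed signal over 9 of 9 markers (Mpo, Elane, Prtn3, Ctsg, S100a8, S100a9, Ltf, Ngp and Camp) was 123198 in KO replicate 5, and 48981 to 58336 in the other KO arrays, against 47128 to 55128 in WT. In single tests 2 of the 9, Mpo and Prtn3, were higher in KO, none was lower, and no marker was at 0. Among all genes 25.5% were higher and 21% lower, so 2 of 9 is not above that share. The same shares stand beside each marker count below. The macrophage and lymphoid marker sums were highest in KO replicate 5 too. They were 25986 and 3471 there, against 13482 to 17756 and 1596 to 2113 in the other KO arrays. Without KO replicate 5 the Rac2 difference was 0.49 and was still called (adjusted p = 0.012 from limma), while that of 1440208_at was 0.45 and was not (adjusted p = 0.068 from limma). Leaving out an array removes all of that embryo and is not a test of cell types. The part of these cells in the Rac2 result was not tested.

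Cdc42 was called on 1 of its 4 probe sets. Its brightest, 1460708_s_at, read 13.18, 13.12, 13.05 and 13.24 in KO replicates 2 to 5, against 13.27, 13.19, 13.29 and 13.31 in the WT arrays. These ranges overlap, and the difference was -0.12 with a 95% interval of -0.32 to 0.091 (adjusted p = 0.31 from limma). On 1415724_a_at and 1449574_a_at all KO arrays lay above all WT arrays, yet the differences of 0.21 and 0.10 were not called (adjusted p = 0.10 and 0.35 from limma).

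The dimmest Cdc42 probe set was called. On 1435807_at the KO arrays read 8.12, 8.65, 8.02 and 8.40 and the WT arrays 7.73, 7.68, 7.92 and 7.77, with no overlap. The difference was 0.53 (SE 0.15, adjusted p = 0.017 from limma), and it fell to 0.13 after quantile normalization (adjusted p = 0.48). In all 3 pairings with the brightest probe set the further Cdc42 probe sets had moved up relative to it, by 0.22 to 0.64 (exact permutation test, p = 0.029 each). After quantile normalization the pair of 1435807_at was at -0.072, and that of 1415724_a_at did not pass (0.25, exact permutation test, adjusted p = 0.086). With the replicate block the pairs of 1415724_a_at and 1449574_a_at did not pass in limma.

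Set against each other within the same arrays, which cancels any factor applied to a whole array, Rac1 minus Cdc42 was -0.15 to 0.025 in KO and -1.03 to -0.81 in WT. The groups did not overlap, and the contrast was 0.85 higher in KO (exact permutation test, p = 0.029, adjusted p = 0.086 over 6 contrasts, where none could pass unless 4 reached that p). Rac2 minus Rac1 was -1.97 to -1.30 in KO, around WT values of -1.74 to -1.58, and the difference of -0.078 was within the spread (exact permutation test, p = 0.66, adjusted p = 0.79). These contrasts used the brightest probe sets, 1451086_s_at for Rac1 and 1460708_s_at for Cdc42, and depend on that choice. On Rac1 1423734_at the KO minus WT difference was only 0.035. With the probe sets of a gene averaged, Rac2 minus Rac1 was 0.23 higher in KO. Such a contrast shows unequal change and not which of the genes changed.

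The formins of the Diaphanous group lengthen unbranched actin filaments under the control of small GTPases. Diaph3 is the member tied to enucleation in mouse erythroblasts, and Diaph1 is the widely expressed one.

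Diaph3 had 1 probe set, which read 9.46, 9.36, 9.41 and 9.17 in KO replicates 2 to 5, and 9.79, 9.97, 9.46 and 9.70 in the WT arrays. WT replicate 3 lay level with KO replicate 2 and the other 3 WT arrays were above all KO arrays. The difference was -0.38 (SE 0.13, adjusted p = 0.038 from limma), a 1.30-fold fall. The call was lost when any of KO replicates 3, 4 and 5 or WT replicates 1, 2 and 4 was left out (differences of -0.40 to -0.30, adjusted p = 0.054 to 0.10), and under the hybridisation control scaling the difference was 0.37. At 1.30-fold it was the smallest change called among the 10 genes.

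Diaph1 held the largest difference of any member probe set and also 2 probe sets without a call. On 1445391_at the KO arrays read 8.58, 8.55, 8.13 and 8.58, against 5.93, 6.21, 6.74 and 5.96 in WT. No array of the groups came near the other group, and the WT mean lay below a signal of 100. The difference was 2.25 (SE 0.20, adjusted p = 4.5e-05 from limma), and against 100 the fold was at least 3.51. The brightest, 1454979_at, read 10.95, 10.85, 11.17 and 11.13 in KO and 10.89, 11.31, 11.17 and 11.06 in WT, a difference of -0.078 with a 95% interval of -0.37 to 0.21. On 1421143_at the ranges were 8.87 to 9.34 in KO and 8.52 to 9.34 in WT, and the difference was 0.22 (adjusted p = 0.34 from limma).

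Within arrays, 1445391_at minus 1454979_at averaged -2.57 in KO and -4.90 in WT (difference 2.32, exact permutation test, p = 0.029, adjusted p = 0.043 over 15 such pairs). The sources used here do not say which part of Diaph1 this dim probe set covers, so its rise cannot be assigned to a transcript. Diaph3 minus Diaph1, on the brightest probe sets, was -1.96 to -1.49 in KO and -1.71 to -1.10 in WT, a difference of -0.30 (exact permutation test, p = 0.14, adjusted p = 0.29).

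**Figure D2:**
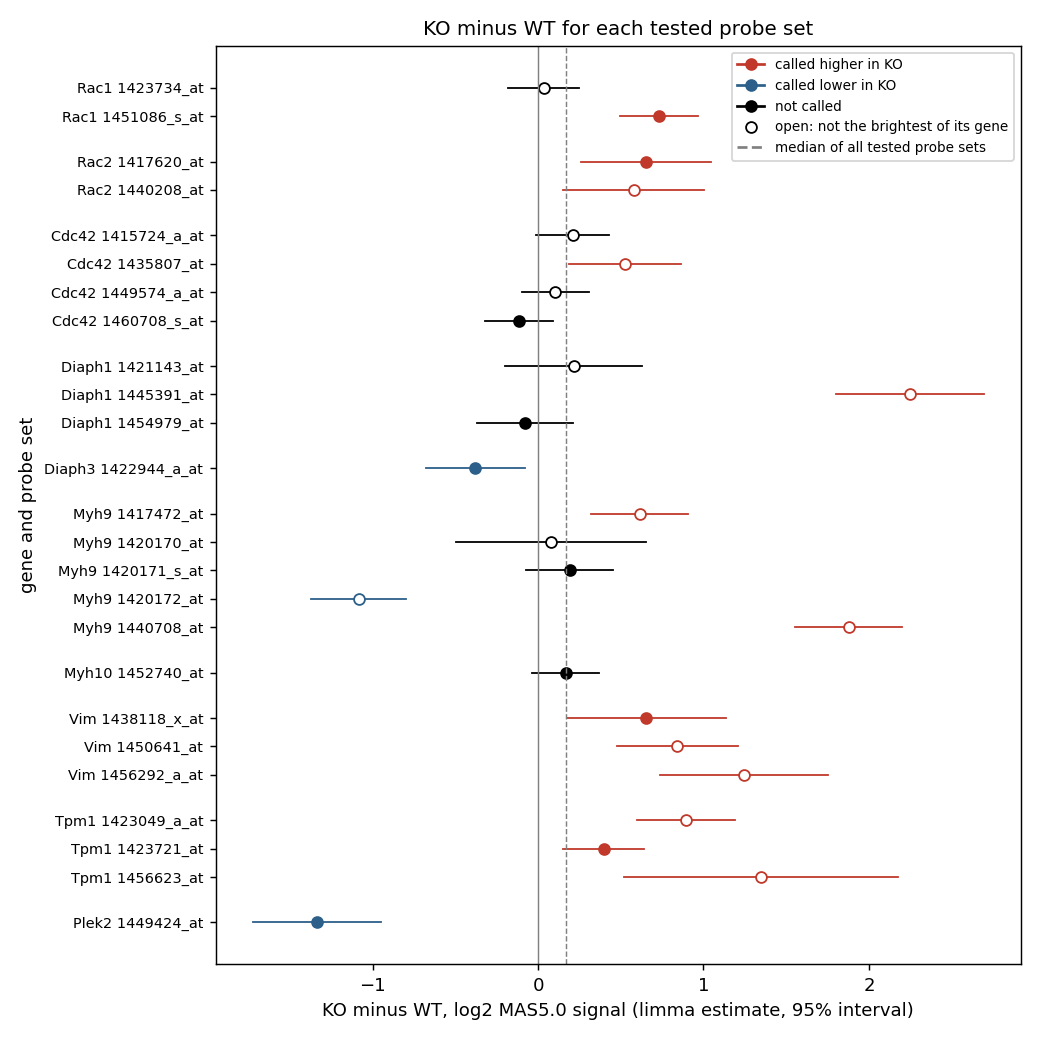
KO minus WT difference in log2 signal (x axis) with its 95% interval from limma for each of the 25 tested probe sets (y axis), filled where the probe set is the brightest of its gene. Red points are called higher in KO, blue ones lower and black ones not called, and the dashed line is the median of all tested probe sets at 0.17; Myh9 holds points at -1.08 and 1.88.

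Nonmuscle myosin II forms bipolar filaments that pull on actin. Myh9 encodes the heavy chain of its IIA form, abundant in platelets and white cells, and Myh10 that of the IIB form, which in human erythroblasts is needed for enucleation.

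Myh9 probe sets went in opposite directions. On 1417472_at the KO arrays read 10.58, 11.03, 10.91 and 10.99 and the WT arrays 10.21, 10.13, 10.44 and 10.27, with all KO arrays above all WT arrays. The difference was 0.62 (SE 0.13, adjusted p = 0.0041 from limma), a 1.53-fold rise. On 1420172_at the KO arrays read 11.24, 11.33, 10.93 and 11.10, against 12.27, 12.43, 12.14 and 12.08 in WT, so here all KO arrays lay below all WT arrays. The difference was -1.08 (SE 0.13, adjusted p = 2.0e-04 from limma), a 2.12-fold fall. Both calls were kept under every alternative run, in the same directions.

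The other Myh9 probe sets added a rise and 2 without a call. The dim 1440708_at read 7.20, 7.65, 7.20 and 7.29 in KO, and 5.23, 5.42, 5.67 and 5.50 in WT. Its difference was 1.88 (SE 0.14, adjusted p = 2.1e-05 from limma), at least 1.61-fold against a signal of 100, since the WT mean was below that. The brightest, 1420171_s_at, read 12.29 to 12.63 in KO and 12.10 to 12.41 in WT and was not called (0.19, 95% interval -0.071 to 0.45). On 1420170_at the KO arrays spread from 8.71 to 9.85 around WT values of 8.91 to 9.52, with a difference of 0.079 (adjusted p = 0.81 from limma).

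Relative to the brightest Myh9 probe set in the same array, 1420172_at was -1.59 to -1.04 in KO and -0.26 to 0.34 in WT, a difference of -1.27. By the same measure 1417472_at had moved by 0.42 and 1440708_at by 1.69, each with no overlap (exact permutation test, p = 0.029 and adjusted p = 0.043 for all 3). Myh9 therefore has no single direction in these arrays. Over the 7 genes with more than 1 tested probe set, 10 of 15 such pairs passed with the signals as deposited. Every one of these genes except Rac2 had at least 1 pair that did. The passing pairs of Diaph1 1445391_at and Myh9 1440708_at rest on probe sets that entered through their KO mean alone. With 15 pairs, at least 9 must reach the smallest exact permutation p of 0.029 before any can pass after adjustment. Without WT replicate 4 only 8 reached it and 0 passed, while the 10 differences stayed at 0.88 to 1.10 times their values, and leaving out any other array left 9 or 10 past the threshold.

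Myh10 had 1 tested probe set, 1452740_at, with values of 11.98, 12.04, 11.90 and 11.91 in KO replicates 2 to 5 and of 11.79, 11.82, 11.71 and 11.85 in the WT arrays. All KO arrays lay above all WT arrays, by little. The difference was 0.17 with a 95% interval of -0.038 to 0.37 (adjusted p = 0.15 from limma), equal to the median of all tested probe sets. It was called higher by the methods' t-test (adjusted p = 0.031) and by its equal-variance form (adjusted p = 0.025). After quantile normalization it was called too (0.32, adjusted p = 0.020 from limma), while with the 75th percentile scaling the difference was -0.097 and not called. Myh10 minus Myh9 within arrays was -0.72 to -0.30 in KO and -0.70 to -0.28 in WT (difference -0.025, exact permutation test, p = 0.86, adjusted p = 0.86). The other Myh10 probe set, 1441057_at, read 4.84 to 5.96 in KO and 1.92 to 4.76 in WT, all below a signal of 100.

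Vim encodes vimentin, abundant in fibroblasts, stellate cells, endothelium and white cells. Its 3 probe sets were all higher in KO. On 1450641_at the KO arrays read 12.55, 13.13, 12.63 and 13.05, against 11.95, 11.84, 11.97 and 12.23 in WT, a difference of 0.84 (SE 0.16, adjusted p = 0.0026 from limma) and a 1.79-fold rise. On 1456292_a_at the values were 11.55, 12.57, 11.64 and 12.27 in KO and 10.71, 10.84, 10.65 and 10.86 in WT, a difference of 1.24 (SE 0.22, adjusted p = 0.0019 from limma) and a 2.37-fold rise. The brightest, 1438118_x_at, read 12.58, 13.45, 12.84 and 13.20 in KO and 12.36, 12.54, 11.98 and 12.56 in WT, a difference of 0.66 (SE 0.21, adjusted p = 0.028 from limma). In all 3 probe sets the KO arrays lay above the WT arrays, and KO replicates 3 and 5 were the higher pair.

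The Vim call on 1438118_x_at was lost without KO replicate 3 (0.51), without KO replicate 5 (0.60), without WT replicate 1 (0.65) and without WT replicate 3 (0.53), with adjusted p of 0.057 to 0.072 from limma in these 4 fits. The calls on the other 2 probe sets were kept in every alternative run. The suffix _x_at marks probes that may also match similar sequences. Vim minus Tpm1 within arrays was 1.53 to 2.33 in KO and 1.18 to 1.90 in WT (difference 0.26, exact permutation test, p = 0.34, adjusted p = 0.51).

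Markers of some of the cell types that hold vimentin moved with Vim. The summed signal of 12 of 12 stellate and mesenchymal markers was 20245, 31744, 21779 and 27831 in KO replicates 2 to 5, against 15288 to 16196 in WT, so that KO replicates 3 and 5 were again the highest. Of these markers 8 were called higher and none lower, among them Col1a1 (1.58) and Pdgfrb (1.01), and Des was near a signal of 100 in both groups. The 12 of 12 endothelial markers summed to 9985 to 12485 in KO and 7941 to 8394 in WT, with 9 called higher (Pecam1 1.73, Kdr 1.19). Of the 12 macrophage markers none was called higher and 1 was lower, and the groups' sums overlapped. No marker of these lists was at 0, and their part in the Vim result was not tested.

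**Figure D3:**
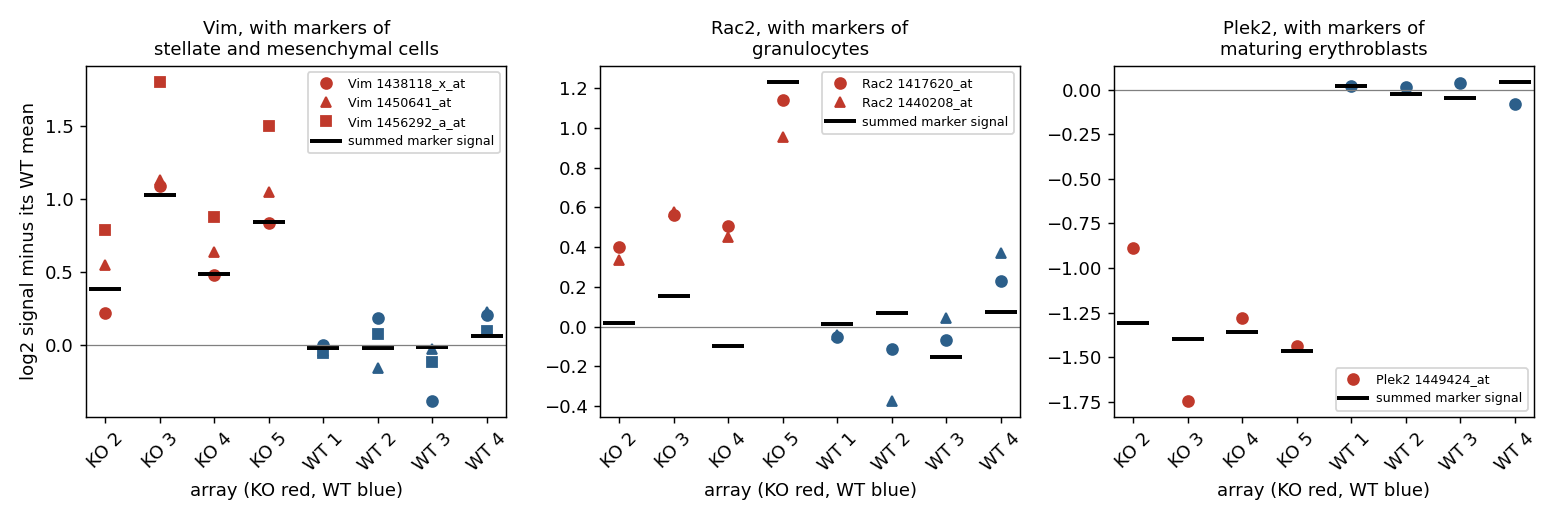
Log2 signal minus its WT mean (y axis) in each of the 8 arrays (x axis, KO in red, WT in blue) for the probe sets of Vim, Rac2 and Plek2, with the log2 summed signal of a marker list as black bars. Vim and the stellate and mesenchymal sum are highest in KO replicates 3 and 5, Rac2 and the granulocyte sum are highest in KO replicate 5, and Plek2 and the erythroblast sum are low in all 4 KO arrays.

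The upstream sequence of Vim is shown because all of its probe sets rose and because it holds several copies of CCNCNCCC, the wider form of the CACCC box to which EKLF binds (N is any base). From RefSeq, build GRCm38.p6, the 250 bases before the Vim start lie at chr2:13574061-13574310 on the plus strand, and capitals mark matches to CCNCNCCC on either strand.
Vim: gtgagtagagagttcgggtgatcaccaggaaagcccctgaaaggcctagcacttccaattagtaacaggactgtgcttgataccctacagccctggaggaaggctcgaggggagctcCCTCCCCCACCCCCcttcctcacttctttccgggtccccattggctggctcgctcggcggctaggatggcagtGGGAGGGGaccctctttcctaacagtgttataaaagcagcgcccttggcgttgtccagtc
There were 3 overlapping matches on the plus strand, from -133 to -120 relative to the start, and 1 on the minus strand from -60 to -53. The first run also holds a CACCC from -126 to -122. Of all 32851 promoter windows of this length 45.9% hold CCNCNCCC and 52.0% hold CACCC, so a match is a description and not a binding site.

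Tpm1 encodes a tropomyosin that lies along actin filaments, those of the short filaments of the red cell membrane skeleton included. It was higher in KO on all 3 tested probe sets. On 1423049_a_at the KO arrays read 10.69, 11.19, 10.86 and 10.80, against 9.97, 10.05, 10.10 and 9.85 in WT, with no overlap. The difference was 0.89 (SE 0.13, adjusted p = 6.1e-04 from limma), a 1.86-fold rise, kept under every alternative run. The brightest, 1423721_at, read 11.05, 11.12, 10.95 and 11.17 in KO and 10.48, 10.76, 10.80 and 10.66 in WT, a difference of 0.40 (SE 0.11, adjusted p = 0.014 from limma) and 1.32-fold. It was not called under the 75th percentile scaling (0.13, adjusted p = 0.33).

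On the dim Tpm1 probe set 1456623_at the KO arrays spread widely, at 6.31, 8.21, 7.28 and 7.54, and WT arrays read 5.99, 6.40, 6.01 and 5.54. KO replicate 2 lay below the highest WT array. The fold was at least 1.61 against a signal of 100 (difference 1.35, adjusted p = 0.014 from limma). Within arrays 1423049_a_at minus 1423721_at was -0.37 to 0.075 in KO and -0.81 to -0.51 in WT, so the probe sets rose unequally (0.50, exact permutation test, p = 0.029, adjusted p = 0.043). The _a_at suffix marks probes that match several transcripts of the same gene.

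Plek2, pleckstrin-2, is a membrane-associated protein that acts on actin downstream of phosphoinositide signals and is made in erythroid cells. Its single probe set, 1449424_at, read 9.85, 8.99, 9.46 and 9.30 in KO replicates 2 to 5, against 10.76, 10.75, 10.78 and 10.66 in the WT arrays. The WT arrays were nearly equal, and every KO array lay below them, KO replicate 3 the furthest. The difference was -1.34 (SE 0.17, 95% interval -1.73 to -0.95, adjusted p = 3.2e-04 from limma), a 2.53-fold fall. It was called lower under every alternative run, with differences of -1.60 to -0.59. Plek2 minus Cdc42 within arrays was -4.13 to -3.33 in KO and -2.65 to -2.44 in WT (difference -1.22, exact permutation test, p = 0.029, adjusted p = 0.086).

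Markers of maturing erythroblasts fell with Plek2. Their summed signal, over the 10 of 13 markers measured, was 48761 to 54417 in KO and 130571 to 139186 in WT, and all 10 were called lower, from Hbb-b2 (-5.12) and Tspo2 (-2.57) to Rhag (-0.66). None was at 0 in any array. The list holds the adult beta globin gene Hbb-b2, and the paper names the adult beta globin genes among those that EKLF regulates. The sum is therefore not a measure of cell number. The part of these markers in the Plek2 result was not tested. Over the 8 arrays the genes most like Plek2, on the brightest probe set, were Noct (Pearson r = 0.997, difference -1.04) and Nt5c (r = 0.996, difference -0.79), out of 11274 genes. Such an r over 8 arrays of 2 genotypes mostly reflects the gap between the groups and is given as a description. For Vim the nearest were Hectd2 and Pde7b (both r = 0.984), for Rac2 Gzf1 (0.992) and Rbl2 (0.986), for Rac1 Mettl4 (0.992) and Stx16 (0.989), and for Tpm1 Gatad2b (0.994) and Vps13d (0.987).

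The short stretch before the Plek2 start that holds its CCNCNCCC matches is given because Plek2 fell the most. It lies at chr12:78906977-78907006 on the minus strand (RefSeq, GRCm38.p6), and capitals mark the matches, both read from the opposite strand.
Plek2: cgggaGGGAGTGGcttcctGGGCGCGGgcg
The matches run from -63 to -56 and from -49 to -42 relative to the start used in the promoter table, and the window lies inside the longer RefSeq span of the gene. Promoter windows were at hand for 7 of the 10 genes (Vim, Cdc42, Tpm1, Myh9, Myh10, Plek2 and Diaph3). CCNCNCCC was found in 4 of these, Myh9, Myh10, Plek2 and Vim, and CACCC in 3, Myh9, Myh10 and Vim. The GATA-type motif AGATAA, present in 9.99% of all windows, was in none of the 7. All motifs were searched on both strands, and CACCC can overlap CCNCNCCC. Genes with a match rose (Vim), fell (Plek2) or were not called on the brightest probe set (Myh9, Myh10).

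Other genes of the same machinery were counted from 11 lists of 188 genes, of which 160 were tested on the brightest probe set. Of these 67 were higher in KO and 22 lower, that is 41.9% and 13.8% against 25.5% and 21% of all genes, with a median difference of 0.30. These shares of all genes stand beside each list below too. Under the 75th percentile scaling 38 were higher and 42 lower, and under the hybridisation control scaling 138 and 4.

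Among regulators of the GTPases, 14 of 30 exchange factors, GTPase-activating proteins and dissociation inhibitors were higher and 4 lower. Arhgdib, a dissociation inhibitor of blood cells, was 2.56-fold higher (12.85 to 13.33 in KO, 11.58 to 11.72 in WT), and Arhgef2 was 2.63-fold higher. Arhgef12, another exchange factor, was 3.34-fold lower, at 9.59 to 9.88 in KO and 11.31 to 11.61 in WT. Tiam2, a Rac exchange factor, was at least 1.17-fold lower (-0.65), but its difference was 0.094 under the hybridisation control scaling. The Tiam2 call was lost in 11 of 22 alternatives, those without KO replicate 3 or 5 or WT replicate 1, 2 or 4 included (adjusted p = 0.058 to 0.093 from limma). Effectors and kinases were split, with 9 of 24 higher and 6 lower. Cdc42bpb, a Cdc42-binding kinase, and Cdc42ep2 were 3.61-fold and 2.61-fold higher, while citron kinase, Cit, which acts in cytokinesis, and Pak4 were 1.88-fold and 1.73-fold lower. With all probe sets of a gene averaged the difference of Cit was 0.27. Cdc42bpb read 8.52 to 8.98 in KO and 5.18, 7.01, 7.57 and 7.89 in WT, and its log2 difference of 1.85 was 1.28 without WT replicate 1 and still called. Its call was lost without the filter and by the methods' t-test, adjusted or not.

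Of actin assembly factors, 4 of 8 other formins rose and none fell, with Inf2 2.71-fold and Fhod1 at least 1.90-fold higher. The Fhod1 call was lost in 11 of 23 alternatives, those without KO replicate 2, 3 or 5 or WT replicate 2 included (adjusted p = 0.052 to 0.064 from limma), and its log2 difference of 1.27 was 0.84 without WT replicate 3, the lowest array. Of the Arp2/3 complex, which makes branched actin, and its activators 9 of 17 rose and none fell, with Was (2.30-fold) and its partner Wipf1 (2.19-fold) in front. Among actins and their turnover 10 of 21 rose, Cap1 (1.94-fold) and Coro1b (1.87-fold) the most, and 4 fell. The largest falls there were those of Cfl1, the filament-severing cofilin (1.58-fold lower), and Tmsb10 (1.34-fold lower), both of which had differences above 0 under the hybridisation control scaling (0.092 and 0.32), and Tmsb10 after quantile normalization too (0.072). Crosslinkers and adhesion linkers had 12 of 20 higher and none lower. Fscn1, the bundling protein fascin, had the largest rise of all listed genes, 4.67-fold (12.18 to 12.71 in KO, 10.00 to 10.20 in WT), and Zyx was 2.26-fold higher.

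Of myosin II subunits and regulators 3 of 12 were higher and 1 lower, that is 25% and 8.33%, beside 25.5% and 21% of all genes. The light chain Myl9 was 1.53-fold and the phosphatase subunit Ppp1r12c 1.96-fold higher, and the phosphatase catalytic subunit Ppp1cb was 1.60-fold lower, with a difference of 0.072 under the hybridisation control scaling. Among tropomyosins and the tropomodulins that cap filaments at their slow-growing ends, 3 of 6 were higher and 1 lower. Tmod3 was 2.30-fold higher (10.95 to 11.10 in KO, 9.71 to 9.94 in WT) and Tpm2 1.55-fold higher, while Tmod1, the main tropomodulin of mature red cells, was 1.39-fold lower, with a log2 difference of 0.27 under the hybridisation control scaling and no call without WT replicate 1 (adjusted p = 0.054 from limma). Of the other intermediate filament and lamin genes none of 9 was higher and 4 were lower, with Gfap 3.02-fold and Lmna 2.37-fold lower, the opposite direction to Vim. Plek, the pleckstrin of platelets and white cells, was 2.42-fold higher (12.03 to 12.61 in KO, 11.04 to 11.11 in WT), the opposite direction to Plek2. Of the 27 listed genes named here 15 kept their call in every alternative run. The other 12 lost it in 1 (Myl9, Pak4), 2 (Cap1, Cfl1, Cit, Tpm2), 3 (Cdc42bpb), 4 (Tmsb10), 5 (Ppp1cb), 6 (Tmod1) or 11 (Fhod1, Tiam2) alternatives.

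**Figure D4:**
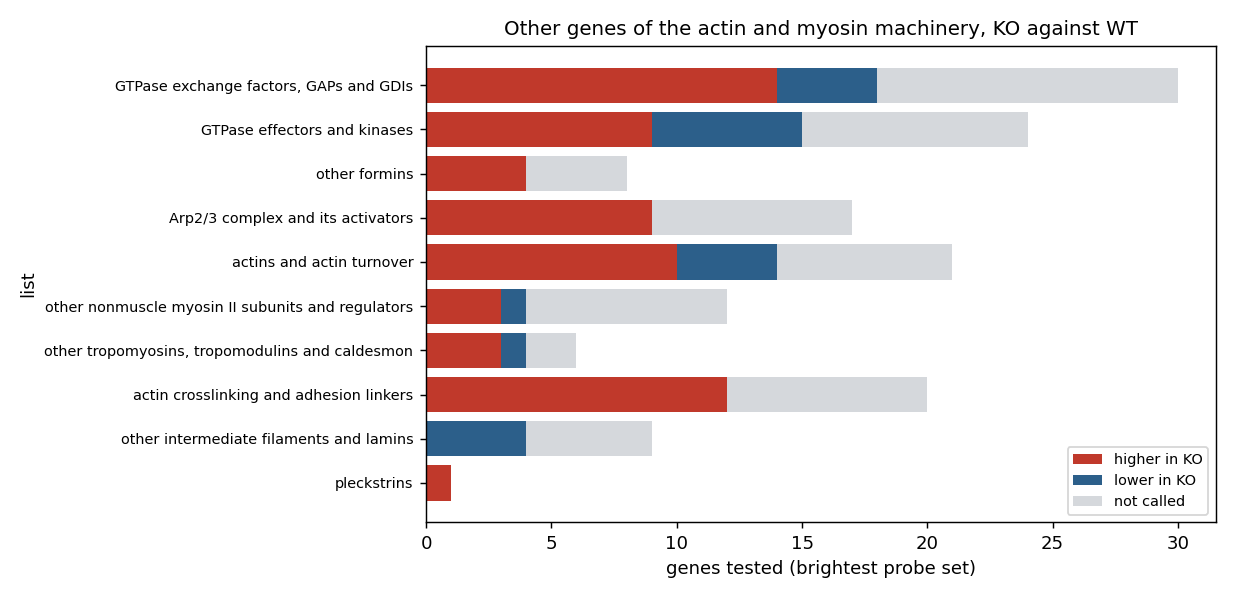
Number of tested genes (x axis) in each of 10 of the 11 lists of the actin and myosin machinery (y axis), split into those called higher in KO (red), lower in KO (blue) and not called (grey). The crosslinkers, the Arp2/3 complex and the other formins hold rises and no falls, and the intermediate filaments and lamins hold 4 falls and no rise.

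Markers of the remaining cell types moved as well, and their part in these counts was not tested. Of 11 megakaryocyte and platelet markers 9 were measured, summing to 33244 to 41913 in KO and 26402 to 30085 in WT, with 7 higher and none lower. Of 12 hepatocyte markers 11 were measured, at 150518 to 181172 in KO and 228317 to 252293 in WT, with 1 higher and 7 lower. The 12 of 12 macrophage markers ranged from 13482 to 25986 in KO and from 19544 to 24457 in WT, with 1 lower. The 9 of 9 lymphoid markers summed to 1596 to 3471 in KO and 1363 to 1762 in WT, and 5 of them (Cd79a, Vpreb1, Rag1, Cd3e and Cd3g) lay below a signal of 100 in both groups. Of the other 4, Ptprc, which all white cells carry, was higher (0.90), the B-lineage gene Igll1 was lower, and Cd79b and Il7r were not called. The fall of Igll1 was at least 1.61-fold against a signal of 100. Its KO mean signal was 29.7, the groups overlapped, and it passed the filter only through WT. No marker of these lists was at 0.

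The scaling of the arrays moved the members together. Relative to the MAS5.0 signals as deposited, the hybridisation controls differed by -0.75 between KO and WT, the poly-A controls by 0.086 and the 75th percentile by 0.26. The median difference of all tested probe sets was 0.17 as deposited, -0.0091 after quantile normalization, -0.095 with the 75th percentile scaling, 0.082 with the poly-A controls and 0.92 with the hybridisation controls. Of the 16 called member probe sets 9 kept their call and direction in every alternative run, those of Plek2, Rac1 1451086_s_at, Diaph1 1445391_at, Tpm1 1423049_a_at, Vim 1450641_at and 1456292_a_at, and Myh9 1417472_at, 1420172_at and 1440708_at. The other 7 lost it in some of 22 to 24 alternatives, in 2 for Tpm1 1456623_at, 3 for Rac2 1417620_at, 4 for Tpm1 1423721_at, 5 for Cdc42 1435807_at, 9 for Vim 1438118_x_at, 11 for Diaph3 and 13 for Rac2 1440208_at. These included the methods' t-test after Benjamini-Hochberg adjustment for all of them except Tpm1 1423721_at.

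**Figure D5:**
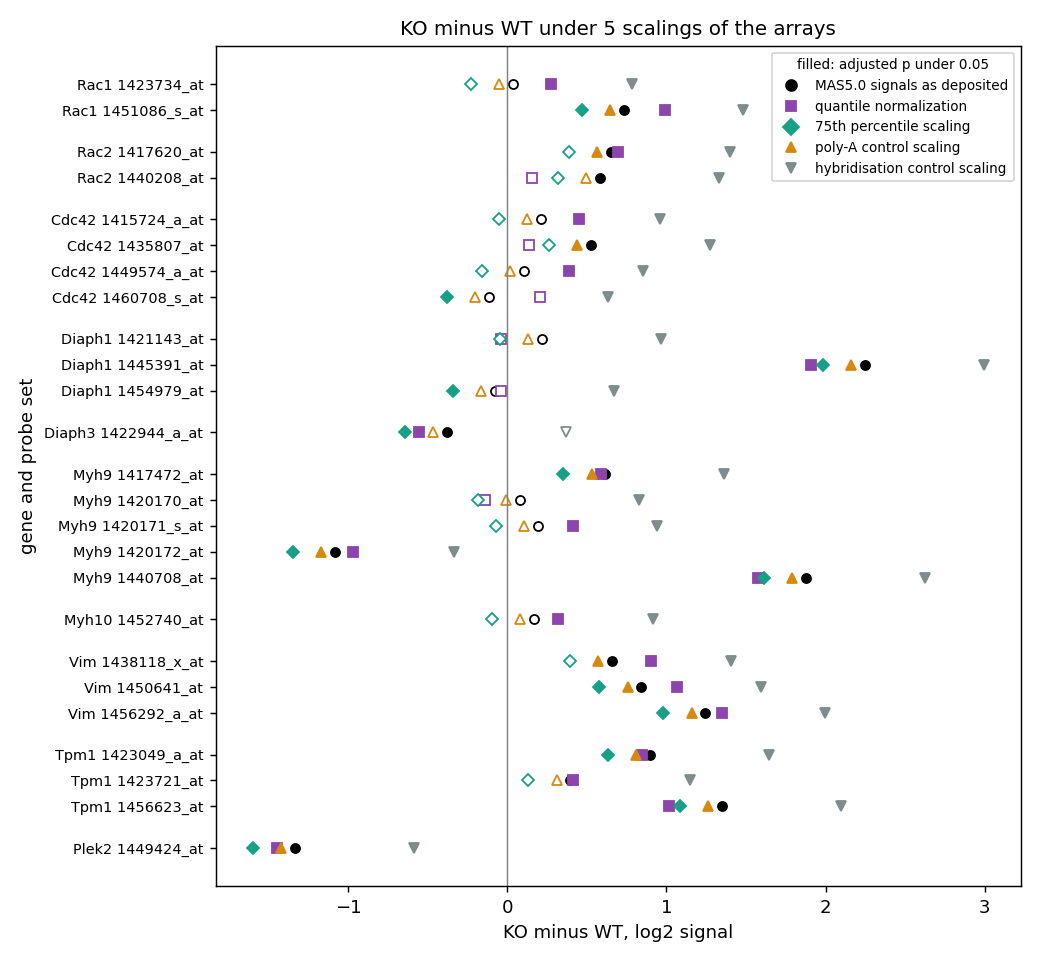
KO minus WT difference in log2 signal (x axis) of the 25 tested probe sets (y axis) under 5 scalings of the arrays, filled where the adjusted p was under 0.05. Plek2 and Myh9 1420172_at lie below 0 under all 5 scalings, Diaph3 crosses to 0.37 under the hybridisation control scaling, and all 3 Vim probe sets stay above 0.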

How the data were processed

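Total RNA of E14.5 fetal livers of 4 Eklf-/- (KO) and 4 WT embryos was hybridized to Affymetrix mouse arrays, 1 per embryo. The authors processed the scans with MAS5.0 and deposited linear intensities for 45101 probe sets. MAS5 and R 3.0.2 are the tools listed in the submitters' processing notes. The mean without the outer 2% at each end is 500.0 in every array. The median signal was 96.7 to 114.0 in KO and 79.5 to 84.1 in WT arrays. The highest signal was 32642 to 39185 in KO and 54914 to 60411 in WT. A difference within an array does not cancel such an unequal spread between dim and bright probe sets. No 2 arrays shared over 1 identical value. Array signals carry no count of molecules, and precision rests on how many arrays there are.

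Of the probe sets, 34945 have 1 symbol in the platform annotation, which can be old, 932 several, 9160 none and 64 are controls. Only single-symbol probe sets named genes. Other genes, such as Arhgdia or Rock2, were not analysed here.

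Signals were log2-transformed without a pseudocount. Those whose KO or WT mean exceeded a signal of 100, 23379 probe sets, entered a test in limma 3.58.1 with R 4.3.3 (lmFit and eBayes, genotype as the only term, two-sided, Benjamini-Hochberg at 0.05). The fit was tested on simulated data. The brightest probe set by its mean in the 8 arrays stood for a gene. A fold written as at least was taken against 100, for a group whose mean was under that signal. Probe sets were not compared in level, and differences within an array were set against genotype by exact permutation of the arrays (70 assignments). These ran in Python 3.11.15 (pandas 2.3.3, scipy 1.17.1, numpy 2.4.6).

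The named genes are all 10 members, up to 2 called genes per list at either end of the differences, the 2 genes most correlated with each member, Klf1 and the cell type markers. The neighbours of Cdc42, Diaph1, Diaph3, Myh9 and Myh10 followed the same rule and are not printed, and 1 list is counted in the totals but not reported here on its own. Members and lists were chosen with earlier results of these data known. As alternatives, arrays were quantile-normalized or scaled to the 75th percentile, the hybridisation controls or the poly-A controls, and the fit was repeated with pseudocounts of 16 and 64, other filters, limma's trend and robust options, the methods' t-test, a replicate block, leaving out each array, and the mean over the probe sets of a gene. RefSeq promoter windows (GRCm38.p6) were matched by symbol.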

Additional observations from a re-analysis of the deposited data

Results flagged for a closer look

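Of 108 groups of 4 arrays examined, 8 held an array far from the other 3 of its group, where chance alone marks about 1 in 20. On the log2 scale KO replicate 4 read 13.17 for Cdc42 1449574_a_at (the other KO arrays at 13.01 or lower) and 8.13 for Diaph1 1445391_at (8.55 to 8.58). WT replicate 4 read 10.91 for Rac2 1417620_at (other WT arrays 10.57 to 10.63). For Rac1 1423734_at minus 1451086_s_at, WT replicate 4 was at 0.044 (others 0.30 to 0.35). WT replicate 3 was at 1.18 for Vim minus Tpm1 (others 1.79 to 1.90) and at -1.33 for Vim 1456292_a_at minus 1438118_x_at (others -1.70 to -1.65). The summed granulocyte marker signal was 123198 in KO replicate 5 (other KO arrays 48981 to 58336), and the stellate and mesenchymal sum was 16196 in WT replicate 4 (other WT arrays 15288 to 15357).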

How the results depend on the processing

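Scaling moved the split between directions. With quantile normalization 50.9% of all calls were higher in KO (66.0% as deposited), the median of all probe sets was -0.0091, and signs turned for Cdc42 1460708_s_at (0.21), Diaph1 1421143_at (-0.041), Myh9 1420170_at (-0.14), Tmsb10 (0.072) and Cdc42 1435807_at minus 1460708_s_at (-0.072). With the 75th percentile 42.1% were higher and the median was -0.095. Then 8 member probe sets were higher and 5 lower, 1 gene higher and 4 lower, and 38 listed genes higher and 42 lower. Rac1 1423734_at (-0.23), Cdc42 1415724_a_at (-0.054) and 1449574_a_at (-0.16), Diaph1 1421143_at (-0.048), Myh9 1420170_at (-0.19) and 1420171_s_at (-0.073) and Myh10 (-0.097) turned. With the hybridisation controls 18742 probe sets were called, 96.8% of them higher, at a median of 0.92. Then 22 member probe sets and 8 genes were higher, 1 gene was lower, and 142 listed genes were called (138 higher, 4 lower). Cdc42 1460708_s_at (0.63), Diaph1 1454979_at (0.67), Diaph3 (0.37), Tiam2 (0.094), Cfl1 (0.092), Tmsb10 (0.32), Ppp1cb (0.072) and Tmod1 (0.27) turned. With the poly-A controls 1 gene was lower, and Rac1 1423734_at (-0.051) and Myh9 1420170_at (-0.0076) turned.

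Without the filter, which adds dim probe sets to the adjustment, 3 genes were called (2 higher, 1 lower) and 59 listed genes, 12 of them lower. By the methods' t-test after Benjamini-Hochberg 1 gene and 14 listed genes were lower. With the mean over a gene's probe sets Cdc42 (0.18), Diaph1 (0.79), Cit (0.27) and Rac2 minus Rac1 (0.23) turned. Pseudocounts, the stricter filters and limma's options left the counts within 1.5 times.

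Arrays with the same replicate number did not deviate together (r = -0.00084, -0.082 and -0.027). The labels do not say whether the numbers pair embryos, and these correlations cannot exclude it. With the replicate block, where only the 6 arrays that share a number inform the difference, 7780 probe sets were called, 9 of the members (7 higher), 2 genes (1 higher, 1 lower) and 47 listed genes (36 higher, 11 lower). Of the 6 within-array contrasts 2 passed in limma (Rac1 minus Cdc42 and Plek2 minus Cdc42), and 8 of the 15 probe set pairs. Myh9 1420170_at (-0.21) and Myh10 minus Myh9 (0.028) turned.

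With each array left out in turn, genes lower in KO numbered 1 to 2 and probe set pairs past the threshold 0 to 10 (0 without WT replicate 4, where 8 pairs reached the smallest possible p and 9 are needed, with differences at 0.88 to 1.10 times their values). Values that changed sign ranged from -0.00083 to 0.083 for Rac1 1423734_at, -0.11 to 0.27 for Myh9 1420170_at, -0.22 to 0.0037 for Rac2 minus Rac1, -0.097 to 0.046 for Myh10 minus Myh9 and -0.25 to 0.10 for Myh9 1420170_at minus 1420171_s_at. The cause of these changes was not tested. None of the 6 within-array contrasts between genes passed after adjustment in the exact test, where 4 would have to reach the smallest possible p of 0.029 and 2 did.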
